A study of Mus musculus with 6 samples.

Results

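The fatty acid binding protein genes Fabp1 to Fabp7 and the fatty acid receptor gene Cd36 were examined in damaged hepatocytes (dHeps), 8 genes out of the 52323 in the deposited count table. They were taken by gene symbol, and the set was selected on the measured log2 fold change of Fabp1 between cells given 5 compounds and solvent controls, one of the largest rises. The cells came from the livers of AAV-TBG-Cre:Rosa-LSL-tdTomato mice with chronic carbon tetrachloride (CCl4) injury. In these animals Cre is driven by the hepatocyte promoter TBG and switches on the red protein tdTomato, and this allele, the viral Cre and the injury were common to all groups. Per the study's methods the mice were 8 to 10 weeks old when injected, and the injury lasted 12 weeks. The methods call replicates biological, but neither they nor the labels say whether the 2 libraries of a group came from different animals or cultures, so the spread between them may be technical. Bulk RNA-seq was done after 16 days of culture in a serum-free hepatocyte medium, with 2 libraries in each of 3 groups. The DMSO group received solvent alone. The 3C group received GSK429286A (a kinase inhibitor) at 2 µM, ETC-1002 (bempedoic acid) at 5 µM and CID755673, which inhibits protein kinase D, at 50 µM. The 5C group received the same 3 compounds at the same doses plus 5 µM salidroside, a plant glycoside, and 2 µM forskolin, which activates adenylate cyclase. No uncultured or uninjured hepatocytes were among these libraries. All groups are therefore cultures of injured cells.

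Long-chain fatty acids enter cells partly through CD36, a membrane receptor of the scavenger class, and are carried through the cytosol by small fatty acid binding proteins (FABPs) that each hold a lipid inside a barrel of beta strands. FABP1 is the liver form and one of the abundant cytosolic proteins of healthy hepatocytes. FABP2 is the intestinal form, FABP3 that of heart and muscle, FABP4 that of fat cells and macrophages, FABP5 the epidermal form, FABP6 the ileal form that binds bile acids, and FABP7 the brain form. Fabp1, Fabp4 and Cd36 are textbook targets of the peroxisome proliferator activated receptors (PPARs), nuclear receptors that bind fatty acids. Such receptors bind DNA with their partner RXR at paired AGGTCA-like half-sites spaced by a single base, a layout called DR1 that HNF4A also reads.

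The 7 Fabp genes are built alike. Each had 4 exons in its reference transcript (GRCm39, GENCODE), with coding sequences of 384 to 408 bases, whereas Cd36 had 15 exons and 1419 coding bases. Fabp1 lies at chr6:71176809-71182016 on the plus strand, Fabp2 at chr3:122688721-122693155 and Fabp3 at chr4:130202388-130209259, both also on the plus strand. Fabp4 (chr3:10268785-10273737, minus strand) and Fabp5 (chr3:10077602-10081674, plus strand) sit in a cluster of 5 Fabp family genes. Fabp6 lies at chr11:43486872-43492469 on the minus strand, Fabp7 at chr10:57660956-57664554 on the plus strand and Cd36 at chr5:17986432-18094067 on the minus strand. Over the aligned coding bases, the closest pair was Fabp3 and Fabp7, at 66.7% identity, and the most distant Fabp5 and Fabp6, at 48.8%. Fabp1 was closest to Fabp6, at 58.6%.

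Promoters of 300 bases, from 250 before to 50 after the RefSeq start, were found for 6 of the 8 members and matched to GRCm39. Fabp4 and Fabp5 were the members without an entry. The 120 bases just before the start are shown for the 4 Fabp genes that were called in at least 1 comparison, 5′ to 3′ on the strand of the gene, with capitals for letters that matched a searched motif on either strand.
Fabp1, chr6:71176743-71176862, plus strand: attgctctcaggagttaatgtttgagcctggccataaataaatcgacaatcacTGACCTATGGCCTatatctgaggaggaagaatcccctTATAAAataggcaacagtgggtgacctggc
Fabp2, chr3:122688601-122688720, plus strand: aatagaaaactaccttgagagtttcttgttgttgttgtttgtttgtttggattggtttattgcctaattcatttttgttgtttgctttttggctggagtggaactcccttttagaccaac
Fabp3, chr4:130202411-130202530, plus strand: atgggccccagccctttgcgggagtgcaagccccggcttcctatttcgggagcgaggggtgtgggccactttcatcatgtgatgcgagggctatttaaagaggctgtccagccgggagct
Fabp7, chr10:57660899-57661018, plus strand: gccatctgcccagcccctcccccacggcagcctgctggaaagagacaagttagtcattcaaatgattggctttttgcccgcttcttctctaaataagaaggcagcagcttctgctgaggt
In Fabp1 the first capitals, TGACCTATGGCCT at bases -67 to -55 from the start, are on the reverse strand a DR1 spelled as AGGNCA repeated after a gap of 1 base, which 0.381% of 32851 promoters of this length held. The second capitals, TATAAA at -30 to -25, were held by 13.6% of the promoters. The DR1 letters were chosen with the known Fabp1 element in mind, so this match is a description. Fabp6 held TATAAA on the reverse strand at -29 to -24. The letters TGACGTCA, the full cAMP response element (1.79% of promoters), and CAAAGTCCA, an HNF4 motif that can overlap a DR1 (0.475%), were found in none of the 6 windows. For the windows of Fabp2, Fabp3, Fabp7 and Cd36, no match says only that these exact letters are not there. The Cd36 window lies at a start 53173 bases downstream of its first GENCODE start, so bases near that first start were not searched.

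The libraries held 65916573 to 69245895 estimated counts. Levels below are CPM, counts scaled to a library total of 1000000, changes are log2 fold changes from an edgeR quasi-likelihood fit to all 19135 genes that passed a low-count filter, and a gene was called when its Benjamini-Hochberg adjusted p was under 0.05 and its log2 fold change was above 1 or below -1. The labelled cell type was compared with its markers. Among 11 tested hepatocyte markers, 10 were called higher in 3C than in DMSO and 9 in 5C than in DMSO, with none called lower. Of all tested genes, 5.83% and 7.3% were called higher in these comparisons. Arg1 went the other way without a call, at means of 460 CPM in DMSO, 373 CPM in 3C and 253 CPM in 5C. The summed level of the markers was 2981 to 3246 CPM in DMSO, 12806 to 13530 CPM in 3C and 12142 to 17494 CPM in 5C. Alb was its largest part, at means of 1269, 7585 and 8583 CPM. Of 16 macrophage markers, 14 were called lower in 3C than in DMSO and 14 in 5C than in DMSO. Of all tested genes, 3.62% and 4.42% were called lower. Cd14 went the other way without a call, at means of 89.6 CPM in DMSO, 166 CPM in 3C and 135 CPM in 5C. The 16 markers summed to 13777 to 14788 CPM in DMSO, 4900 to 4914 CPM in 3C and 3257 to 3325 CPM in 5C. All 3 groups thus held macrophage transcripts, and DMSO held the most. Stellate cell and fibroblast markers summed to 6231 to 7357 CPM in DMSO, 6030 to 6069 CPM in 3C and 10104 to 10769 CPM in 5C. The libraries thus held much RNA of other cell types. In bulk RNA, fewer cells of a type and less RNA per cell cannot be told apart.

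Fabp1 went from a few fragments to the most abundant FABP transcript per length. Its level was 0.372 and 0.774 CPM in the DMSO libraries, 8.88 and 8.75 CPM in 3C, and 55.7 and 80.8 CPM in 5C. The DMSO libraries were lowest, the 5C libraries highest, and no groups overlapped. The DMSO values rest on only 25 and 51 estimated counts, about 6.25 and 12.8 fragments if 1 fragment gives 4 units, as the low values of the table point to. The log2 fold change was 6.92 (SE 0.34) for 5C against DMSO, 3.91 (SE 0.33) for 3C against DMSO and 3.01 (SE 0.26) for 5C against 3C. Fabp1 was chosen for its rise in 5C against DMSO, and each comparison uses the 5C or the DMSO libraries. The values of Fabp1 are therefore given without a test. Its rise in 5C ranked 4 among the 968 called genes whose mean reached 10 CPM, just after Cyp3a11 at 7.95 and just before Apln at 6.85. With DMSO replicate 2 left out, the log2 fold change against DMSO was 7.55 in 5C and 4.54 in 3C. With DMSO replicate 1 left out it was 6.47 in 5C and 3.46 in 3C, so the size of the fold depends on few DMSO reads. By transcripts per length (FPKM), Fabp1 stood at rank 13941 and 12428 of 19125 tested genes in the DMSO libraries, 5182 and 5229 in 3C, and 769 and 477 in 5C.

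**Figure D1:**
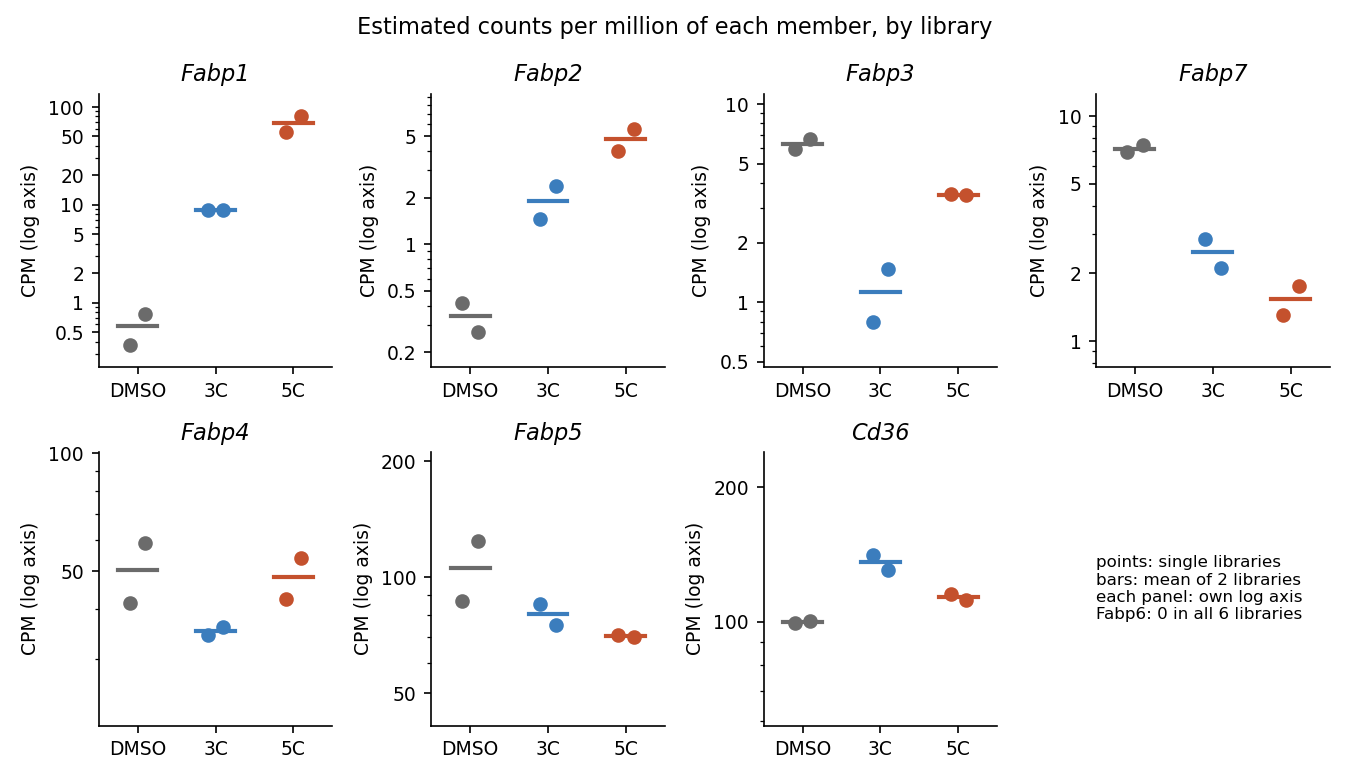
Level of each member in every library, in CPM on a log axis of its own in each panel, with a bar at the mean of the 2 libraries of a group. Fabp1 and Fabp2 were lowest in DMSO and highest in 5C, Fabp7 ran the other way, Fabp3 was lowest in 3C, and Fabp4, Fabp5 and Cd36 stayed within a narrow range.

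Fabp2, the intestinal form, had the same order of groups. Its level was 0.417 and 0.273 CPM in DMSO, 1.45 and 2.37 CPM in 3C, and 3.98 and 5.55 CPM in 5C, with no overlap between groups. It was higher in 3C than in DMSO by 2.43 on the log2 scale (SE 0.40, edgeR adjusted p = 0.00188), and this call held in all 16 alternative analyses. Against 3C, 5C was higher by a further 1.37 (SE 0.36, edgeR adjusted p = 0.0371). That call was lost when any single 3C or 5C library was left out, with edgeR adjusted p of 0.243 without 3C replicate 1, 0.0615 without 3C replicate 2, 0.0687 without 5C replicate 1 and 0.248 without 5C replicate 2. The DMSO libraries held 28 and 18 estimated counts. Of 7 enterocyte markers, Cdx1, Cdx2 and Sis were at 0 in every library and 3 were tested. Mttp, which loads lipid onto apolipoprotein B in liver as well as gut, was the one called, higher in 3C (1.34) and in 5C (1.62) than in DMSO. The list summed to 24.8 to 26.7 CPM in DMSO, 62.2 to 67.8 CPM in 3C and 69.2 to 77.9 CPM in 5C. Most of each sum was Mttp, at means of 23.3, 60.4 and 70.8 CPM, so this order of groups, that of Fabp2, is the order of Mttp. Slc10a2 was instead highest in 3C, at means of 2.27, 4.44 and 2.77 CPM, and Lct had means under the floor. The part of the list in the Fabp2 values was not tested. The gene 4933405D12Rik, which overlaps an exon of Fabp2 on the opposite strand and shares 14.2% of its 50-base words, had at most 7 estimated counts in any library.

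Fabp3, the heart and muscle form, was lowest in 3C. It stood at 5.97 and 6.66 CPM in DMSO, 0.800 and 1.47 CPM in 3C, and 3.53 and 3.47 CPM in 5C, and the 3 groups did not overlap. It was lower in 3C than in DMSO by 2.51 on the log2 scale (log2 fold change -2.51, SE 0.31, edgeR adjusted p = 0.000405), and higher in 5C than in 3C by 1.67 (SE 0.31, edgeR adjusted p = 0.00802). The latter call was lost without 3C replicate 1, the lower of the 3C libraries, where the change was 1.30 with an edgeR adjusted p of 0.0506. The identity of these reads is less certain than for the other members. Of the 50-base words of Fabp3, 70.7% also occur in Zcchc17, which overlaps it on the opposite strand, in the overlapping gene Gm10570 or in the pseudogene Fabp3-ps1, and the library kit named in the labels is not known to keep strand. Zcchc17 was at 20.01 to 27.0 CPM and was not called in any comparison, with log2 fold changes of -0.31 for 3C against DMSO and 0.15 for 5C against 3C. Gm10570 and Fabp3-ps1 reached at most 14 and 12 estimated counts. Of 7 muscle markers, Ckm, Myl2 and Myod1 were at 0 in every library and 3 were tested. In 3C against DMSO, Tnnt2, a cardiac troponin, was called higher (1.58) and Myh7, a cardiac and slow muscle myosin, was called lower, and Tnnt2 was also higher in 5C than in DMSO (1.63). Myh7 stood at a mean of 0.541 CPM in DMSO, 0.0298 CPM in 3C, under the floor, and 0.260 CPM in 5C, the same order of groups as Fabp3. The list summed to 2.37 to 3.17 CPM in DMSO, 4.76 to 5.65 CPM in 3C and 3.84 to 6.69 CPM in 5C, and its part in the Fabp3 values was not tested.

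Fabp7, the brain form, was lower in both treated groups. It was at 6.94 and 7.42 CPM in DMSO, 2.85 and 2.13 CPM in 3C, and 1.30 and 1.76 CPM in 5C, again with no overlap. The log2 fold change of 3C against DMSO was -1.56 (SE 0.27, edgeR adjusted p = 0.00247), a call that held in all 16 alternative analyses. Between 5C and 3C the difference of -0.65 (95% interval -1.26 to -0.04) did not pass the test (edgeR adjusted p = 0.176). The summed macrophage markers given above moved in the same order of groups, and their part in this result was not tested. None of the 5 glial markers tested was called in any comparison, and the glial factor Sox10 had at most 4 estimated counts.

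Fabp4, Fabp5 and Cd36 were the members with the highest FPKM in DMSO and moved little. Fabp4 was at 41.5 and 59.2 CPM in DMSO, 34.4 and 36.1 CPM in 3C, and 42.6 and 54.1 CPM in 5C. The 3C libraries were the lowest, and the DMSO and 5C libraries overlapped. Its log2 fold change was -0.55 (95% interval -1.01 to -0.09, edgeR adjusted p = 0.0904) for 3C against DMSO and 0.51 (0.05 to 0.97, edgeR adjusted p = 0.162) for 5C against 3C. Of its 50-base words, 10.5% occur in other genes. Fabp4 marks both fat cells and macrophages. Of 6 fat cell markers, Adipoq, Plin1, Lep and Cfd were at 0 in every library. The one tested, Cidec, a lipid droplet protein also made by hepatocytes, was called higher in 3C (1.40) and in 5C (1.46) than in DMSO. The list summed to 5.82 to 6.01 CPM in DMSO, 15.7 to 15.9 CPM in 3C and 14.0 to 17.8 CPM in 5C. The summed macrophage markers given above were highest in DMSO and lowest in 5C, an order that Fabp4 did not have. The part of either list in the Fabp4 values was not tested.

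Fabp5, the epidermal form, was at 86.8 and 125 CPM in DMSO, 85.3 and 75.4 CPM in 3C, and 70.7 and 70.03 CPM in 5C. The groups did not overlap, but DMSO replicate 1 and 3C replicate 1 nearly met. Its log2 fold change was -0.43 (95% interval -0.83 to -0.03, edgeR adjusted p = 0.123) for 3C against DMSO and -0.14 (-0.55 to 0.26, edgeR adjusted p = 0.703) for 5C against 3C. Of its 50-base words 21.0% are shared with pseudogene-like copies, of which Gm6166 reached 8.33 to 16.2 CPM and was not called in any comparison.

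Cd36 was at 99.4 and 100.3 CPM in DMSO, 141 and 131 CPM in 3C, and 116 and 112 CPM in 5C, with the 3C libraries highest and no overlap. The libraries of each group lay close together, so that the log2 fold change of 0.41 in 3C against DMSO (SE 0.07, edgeR adjusted p = 0.00178) passed the p threshold while staying under the fold threshold. Against 3C, 5C was at -0.21 (95% interval -0.36 to -0.06, edgeR adjusted p = 0.0802). CD36 is also carried by macrophages and endothelial cells. Among 11 tested endothelial markers, 3C had 5 calls above and 2 below DMSO, and 5C had 8 above and 2 below. Their summed level was 358 to 380 CPM in DMSO, 107 to 147 CPM in 3C and 177 to 273 CPM in 5C. Most of the DMSO sum was Lyve1 alone, at means of 314 CPM in DMSO, 72.1 CPM in 3C and 57.6 CPM in 5C. The sum thus hides the markers that rose, such as Cdh5, at means of 1.16, 10.7 and 57.8 CPM. The part of these markers in the Cd36 values was not tested. Fabp6, the ileal bile acid binding form, had a count of 0 in all 6 libraries, where a count of 0 allows up to 3 fragments, or 0.173 to 0.182 CPM.

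Counted over the set, 7 of the 8 members passed the low-count filter. In 3C against DMSO, 4 were called, Fabp1 and Fabp2 higher and Fabp3 and Fabp7 lower, where 9.45% of all tested genes were called (5.83% higher and 3.62% lower). In 5C against 3C, 3 were called, all higher (Fabp1, Fabp2 and Fabp3), against 3.01% of all tested genes (2.16% higher and 0.852% lower). In 5C against DMSO, the comparison from which the set was chosen, 3 were called, Fabp1 and Fabp2 higher and Fabp7 lower, where 11.7% of all tested genes were called (7.3% higher and 4.42% lower). The values there, as a description, were 3.80 (SE 0.41) for Fabp2, -2.21 (SE 0.27) for Fabp7, -0.83 (SE 0.29) for Fabp3, -0.57 (SE 0.17) for Fabp5, -0.04 (SE 0.19) for Fabp4 and 0.21 (SE 0.07) for Cd36. As Fabp1 is given without a test, its calls are a description and no support. Of the other 6 tested members, 3 were called in 3C against DMSO (1 higher and 2 lower) and 2 in 5C against 3C (both higher). The 3 comparisons share libraries in pairs, so their values are not independent of each other. The median member changed by -0.04, -0.43 and 0.51 on the log2 scale for 5C over DMSO, for 3C over DMSO and for 5C over 3C, beside 0.00413, 0.00876 and -0.011 over all tested genes.

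**Figure D2:**
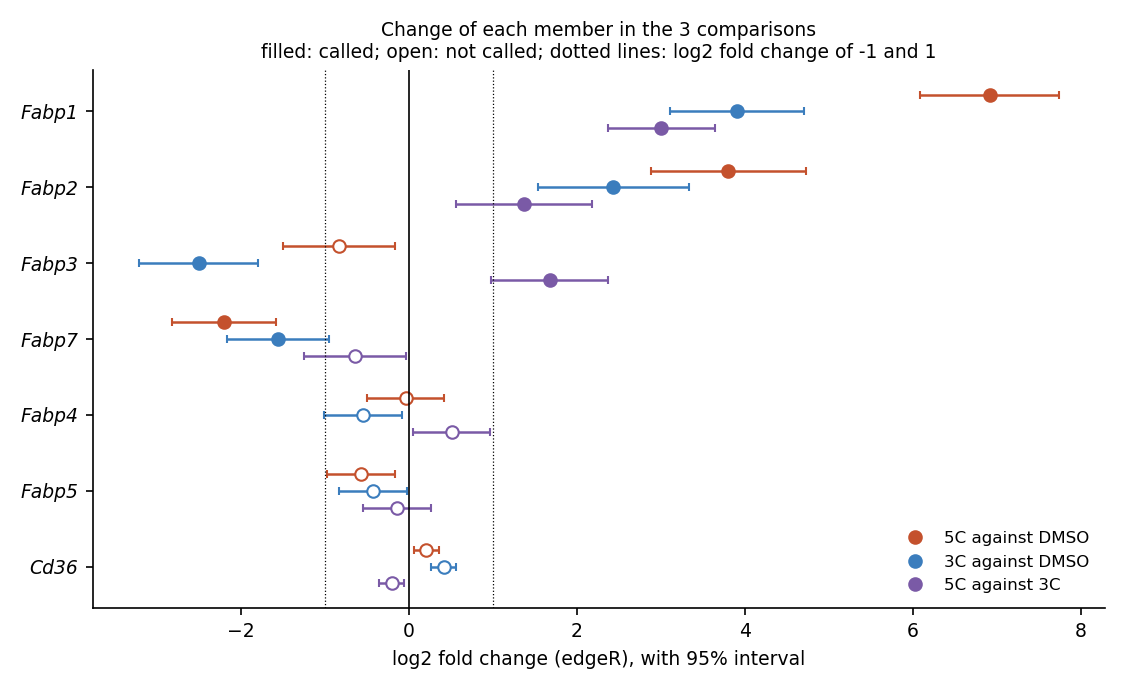
Log2 fold change of the 7 tested members in the 3 comparisons, with 95% intervals from edgeR, filled where called. Fabp1 and Fabp2 lay to the right of 0 in all 3 comparisons, Fabp7 to the left, Fabp3 was lower in 3C than in DMSO by 2.51 and higher in 5C than in 3C by 1.67, and Fabp4, Fabp5 and Cd36 lay within the dotted fold limits.

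Levels of different genes can be set side by side only per transcript length, for which the deposited FPKM values were used. In DMSO the FABP pool was mainly Fabp5 and Fabp4, which made up 59.3% ± 1.13 and 30.3% ± 0.610 of the summed FPKM of the 7 genes (SD, n = 2), and Fabp1 made up 0.563% ± 0.158. In 3C Fabp1 took 11.4% ± 0.276, and in 5C 47.6% ± 4.599, while Fabp5 was at 56.6% ± 2.90 and 27.4% ± 4.48. The pool summed to 158 ± 32.99 FPKM in DMSO, 125 ± 2.52 FPKM in 3C and 232 ± 33.6 FPKM in 5C. Within 5C the order by FPKM was Fabp1 (92.2 and 129.9), Fabp5 (63.6 and 62.0), Fabp4 (42.9 and 52.8), Cd36 (33.9 and 31.9), Fabp2 (3.76 and 5.10), Fabp3 (3.92 and 3.74) and Fabp7 (1.46 and 1.92). Of these neighbours, Fabp2 and Fabp3 overlapped. Within DMSO it was Fabp5 (78.8 and 109), Fabp4 (40.2 and 55.7), Cd36 (33.5 and 31.1), Fabp7 (8.02 and 8.15), Fabp3 (6.75 and 7.16), Fabp1 (0.608 and 1.22) and Fabp2 (0.396 and 0.249), with no neighbours overlapping. Cd36 and Fabp4 changed places in 3C, where Cd36 was at 43.3 and 38.1 FPKM and Fabp4 at 32.8 and 35.4 FPKM.

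**Figure D3:**
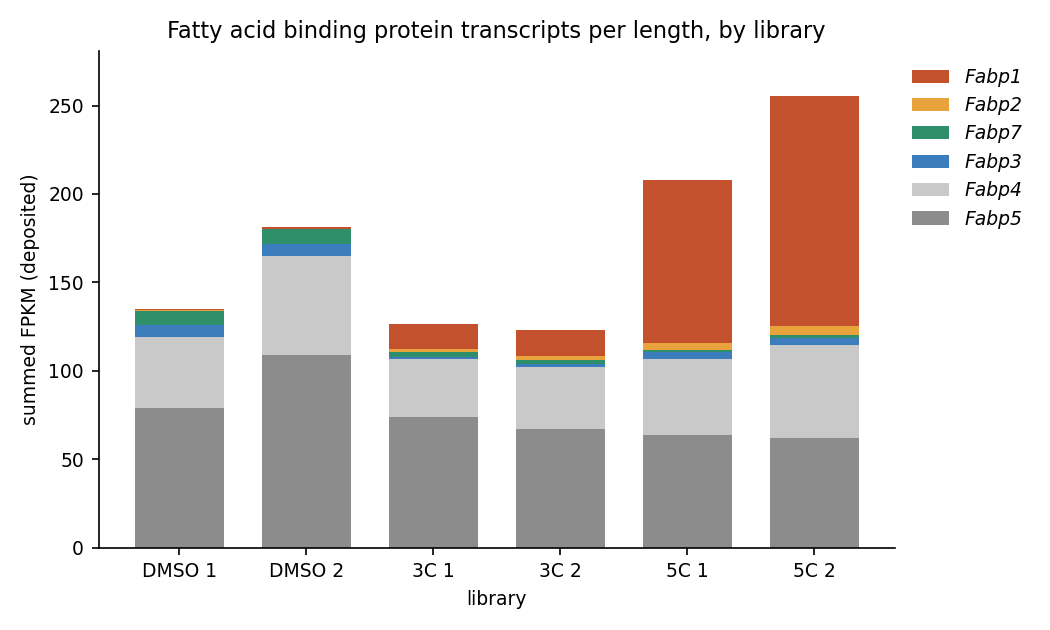
Deposited FPKM of the Fabp genes stacked for each library, starting at 0, so that the height of a bar is the summed FABP transcript level. The grey parts (Fabp5 and Fabp4) fill most of the DMSO and 3C bars, and the Fabp1 part takes 11.4% of the 3C pool and 47.6% of the 5C pool on average.

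The genes whose levels followed each member most closely over the 6 libraries were found by the root mean square distance between centred log2 CPM values. Only 3 groups shape these patterns, so the distances are a description. For Fabp1, among 10245 genes of at least 10 CPM, they were C9 (a complement component, distance 0.269), Apln (the peptide ligand apelin, 0.341), Apoa5 (an apolipoprotein, 0.406), Mup20 (a major urinary protein, 0.482) and Hrg (a plasma glycoprotein, 0.596). With FPKM in place of CPM only Mup20 of these stayed among the nearest 5, and the major urinary proteins are near-identical genes whose counts are uncertain. C9 went from 0.483 ± 0.261 CPM in DMSO to 8.72 ± 0.740 in 3C and 51.2 ± 5.17 in 5C (SD, n = 2). For Fabp2 the nearest were Eln (elastin), Fgg (fibrinogen gamma chain) and Sncaip, at 0.210 to 0.239. For Fabp3 they were Cntnap3, Bcat1 (a branched-chain amino acid transaminase) and Car6 (a carbonic anhydrase), at 0.187 to 0.234. All were also called lower in 3C than in DMSO and higher in 5C than in 3C. They were picked for this likeness in the same libraries, so the shared directions are no support. For Fabp7 they were Fcgr2b (an Fc receptor), Tlr8 (a Toll-like receptor) and Ikzf1 (a lymphoid transcription factor), at 0.102 to 0.122. The nearest were Gpr176, Dennd2a and Snhg12 for Fabp4, Tap1, Irgm1 and Slc66a1 for Fabp5, and Cluh, Emc6 and Prune1 for Cd36.

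The other genes of fatty acid handling were taken from lists. Of 17 genes of fatty acid transport and activation, 3 were called higher in 3C than in DMSO and none lower (median 0.61), 7 higher and none lower in 5C than in DMSO (median 0.65), and 1 higher in 5C than in 3C (median 0.08). The 3 called in 3C were Slc27a5 (bile acid and fatty acid CoA ligase, log2 fold change 3.32), Slc27a2 (a very long chain fatty acid transporter, 3.00) and Lipc (hepatic lipase, 1.66), and these were also the largest in 5C against DMSO, at 5.69, 3.47 and 2.92. In DMSO, Slc27a5 was near the floor at a mean of 0.331 CPM. Lipc had a DMSO mean of 0.218 CPM, with its lower library, at 0.164 CPM, under the floor. Slc27a5 was the one called in 5C against 3C, at 2.37.

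Of 19 genes of fatty acid oxidation and other PPARA targets, 8 were called higher and 1 lower in 3C than in DMSO (median 0.69), 9 higher and none lower in 5C than in DMSO (median 0.77), and 2 higher in 5C than in 3C (median 0.13). The omega-hydroxylase Cyp4a10 was above DMSO by 4.06 in 3C and by 6.11 in 5C, and 5C exceeded 3C by 2.04, and Acaa1b, a peroxisomal thiolase, by 2.17, 3.27 and 1.097. The Cyp4a10 changes against DMSO start from a DMSO mean of 0.330 CPM, near the floor. Cyp4a14 was under the floor in DMSO, at a mean of 0.104 CPM, and reached 1.45 CPM in 3C. The gene called lower in 3C was Fgf21, a liver hormone of fasting, at -1.33. Of 13 tested genes of lipid droplets and triglyceride synthesis, 8 were called higher in 3C than in DMSO (median 1.40), 6 in 5C than in DMSO (median 1.35) and none in either direction in 5C against 3C (median -0.09). Among them were Cideb, a lipid droplet protein of hepatocytes, at 2.62 and 2.72 against DMSO in 3C and 5C, and Plin5, a droplet coat protein, at 2.42 and 3.21. Pnpla3, a lipid droplet acyltransferase and lipase, was under the floor in DMSO, at a mean of 0.0744 CPM, and reached 0.908 CPM in 3C.

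Of 21 factors known to act on member genes, 8 were called higher and none lower in 3C than in DMSO (median 0.31), 6 higher and 1 lower in 5C than in DMSO (median 0.47), and 1 in each direction in 5C against 3C (median -0.27). Ppara, the main PPAR of liver, was higher by 2.04 in 3C and 1.69 in 5C against DMSO (edgeR adjusted p = 5.5e-05 and 0.000125), and its difference of -0.35 between 5C and 3C did not pass the test (edgeR adjusted p = 0.26). Hnf4a, the hepatocyte nuclear receptor, was higher by 1.39 and 1.04 and was at -0.35 between 5C and 3C, and Nr1h4, the bile acid receptor, was at 1.08, 0.96 and -0.12. Pparg, the PPAR of fat cells and macrophages, was at -0.33 and -0.66 against DMSO (edgeR adjusted p = 0.221 and 0.0189), under the fold threshold, and Ppard was at -0.40 and -0.16. None of these 5 receptors was called in 5C against 3C, where the calls were Gata4 (1.09) and Foxa2 (-1.18), both liver transcription factors. Foxa2 was also the factor called lower in 5C than in DMSO, at -1.06. Nr1i2, a xenobiotic receptor, and Ppargc1a, a coactivator of oxidative genes, had calls above DMSO in 3C, at 1.97 and 1.59. The lists were chosen with earlier results of these data known, and the background shares of called genes are those given for the members.

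**Figure D4:**
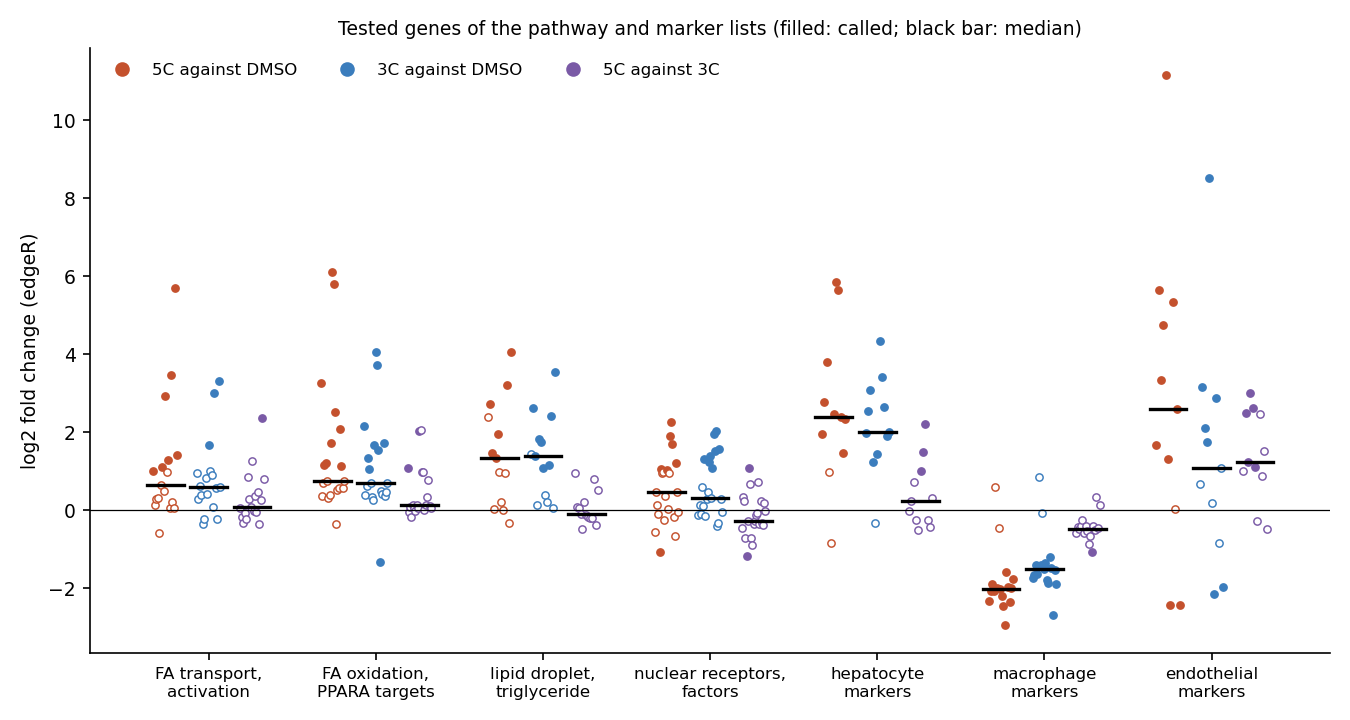
Log2 fold change of each tested gene in 4 lists of fatty acid genes and factors and 3 lists of cell type markers, by comparison, filled where called, with a black bar at the median. Medians of the fatty acid lists lay at 0.61 to 1.40 against DMSO in the first 3 lists and from -0.09 to 0.13 between 5C and 3C, while the macrophage markers lay mainly below 0 in all 3 comparisons.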

How the data were processed

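Bulk RNA-seq of 6 libraries was used. Per the labels, total RNA was extracted from the cultured cells and made into libraries with a NEBNext Ultra RNA kit, and the study's methods give paired reads of 150 bases. The submitters' processing notes name featureCounts, Subread and DESeq2 and the build GRCm39, with no versions, and the aligner, the annotation release and the strand setting were not given in the sources used here. The deposited counts are whole numbers but behave as estimated counts computed from coverage (for genes with 1 transcript they follow FPKM times length, with an excess at multiples of 4), and were treated like expected counts. A floor of 3 fragments was taken as 12 units. The authors also deposited FPKM values, used for levels between genes and as an alternative.

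Genes were filtered with filterByExpr, scaled by TMM and fitted with the robust quasi-likelihood test of edgeR 4.0.16 in R 4.3.3 over all 6 libraries (3 residual degrees of freedom), and p-values were adjusted over 19135 genes. The biological coefficient of variation was 18.4%. P-values measure only the spread between these libraries. Intervals are 95% intervals from the fit. On simulated counts with known changes, placed in genes above a minimum level, the fit recovered most of what was put in. Alternatives were other scalings and filters, DESeq2 1.42.0, limma 3.58.1 on log2(FPKM + 1) and log2(FPKM + 0.1), counts divided by 4, the 4 libraries of a comparison alone, no fold limit, leaving out each library, and the replicate number as a block.

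The members and lists were chosen with earlier results of these data known. Named were all 8 members, for each list up to 3 called genes with the highest and 3 with the lowest change, 5 receptors whatever their change, and the genes most like each member. Shared sequence was counted as 50-base words of the transcripts in GENCODE. Promoters came from the RefSeq table, whose start can lie downstream of the first GENCODE start. This offset was 0 to 143 bases for the Fabp genes found and 53173 bases for Cd36. Protein sequences were not analysed here. Columns with the authors' own comparisons were not used.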

Additional observations from a re-analysis of the deposited data

Results flagged for a closer look

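Of the members other than Fabp1, Fabp2 and Fabp3 responded differently to 5C and 3C, each taken against the same DMSO libraries. The test was the difference between 5C and 3C itself in the edgeR fit. For Fabp2 the difference was 1.37 on the log2 scale, and both 5C libraries (3.98 and 5.55 CPM) lay above both 3C libraries (1.45 and 2.37 CPM). It lost its call whenever one 3C or 5C library was left out. For Fabp3 the difference was 1.67, with both 5C libraries (3.53 and 3.47 CPM) above both 3C libraries (0.800 and 1.47 CPM), and it lost its call without 3C replicate 1. Groups of 2 libraries were too small to look for single outlying libraries.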

How the results depend on the processing

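In 3C against DMSO the changes of the 7 tested members kept their direction and their call, on p and fold together, in 16 alternatives, and 4 members were called each time. With no fold limit the counts, Fabp1 included, were 5 in 3C against DMSO and 5 in place of 3 in 5C against DMSO. On p alone, Fabp4 in 3C against DMSO (edgeR adjusted p = 0.0904) ranged from 0.00564 to 0.324, with 0.0123 by DESeq2 and 0.0157 with the replicate block, and Fabp5 (0.123) from 0.00115 to 0.411, with 0.0261 by DESeq2. For both the lowest came without DMSO replicate 1, and neither change reached the fold limit. Fabp4 in 5C against DMSO, at -0.04, turned to 0.0068 and 0.0072 with limma on log2(FPKM + 1) and log2(FPKM + 0.1). It turned to 0.25 without DMSO replicate 2 and to 0.13 without 5C replicate 1 (range with 1 library left out -0.28 to 0.25). Cd36 in 5C against DMSO, at 0.21 from counts, fell to 0.026 and 0.027 with limma on the same FPKM scales (limma adjusted p = 0.873 and 0.872). In 5C against 3C leaving out 1 library gave 1 to 3 called members, and limma on log2(FPKM + 1) gave 2, where Fabp2 was at 0.98, since the pseudocount shrinks low values. Where a library was left out, the lone sample was assumed to vary like the others. Over all genes, limma on log2(FPKM + 1) called 1231, 958 and 261 against 2242, 1809 and 576 in the edgeR fit, and 381 were called in 5C against 3C without 5C replicate 2. The deviations between replicates 1 and 2 had correlations of -0.0306 (DMSO and 3C), 0.000683 (DMSO and 5C) and 0.0161 (3C and 5C) over all tested genes. Such values over all genes cannot settle whether replicate numbers pair the libraries, and the labels do not say. With the replicate block 3, 4 and 3 members were called (5C over DMSO, 3C over DMSO and 5C over 3C), the same counts as without it. No depth beyond the estimated counts was known, which limits Fabp1 and Fabp2 in DMSO most.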

Other observations

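Of 8 other genes for intracellular lipid binding proteins, Pmp2, Fabp9, Fabp12 and Rbp7 were at 0 in every library, Crabp1 had at most 4 estimated counts, and 3 were tested. Crabp2, a retinoic acid binding protein, was low throughout. It was lower in 3C than in DMSO (log2 fold change -1.72) and higher in 5C than in 3C (2.64), the same 2 directions as Fabp3. In 5C against DMSO the directions differed, with Crabp2 at 0.92 and Fabp3 at -0.83, neither of them called. The mean of Crabp2 in 3C, 0.267 CPM, was near the floor. The other tested genes of this list were not called in any comparison.

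Of 10 stellate cell and fibroblast markers, 2 were called higher and 1 lower in 3C than in DMSO. In 5C against DMSO, 4 were called higher and none lower. Their summed level, given above, was highest in 5C. Of all tested genes, 5.83% were called higher and 3.62% lower in 3C than in DMSO. In 5C against DMSO these shares were 7.3% and 4.42%. Of 7 cholangiocyte markers, 5 were called higher in 3C than in DMSO, and 3 higher and 1 lower in 5C than in DMSO. These summed to 236 to 265 CPM in DMSO, 487 to 564 CPM in 3C and 398 to 423 CPM in 5C. Of 5 mesothelial markers, 1 was called higher in 3C than in DMSO and 4 in 5C than in DMSO. The mesothelial sum was 798 to 956 CPM in DMSO, 1075 to 1195 CPM in 3C and 1840 to 1954 CPM in 5C.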
